A study of Mus musculus with 25 samples.

Results

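The genes followed here mark the cells of brain vessels in mouse cortex: Cldn5, Flt1, Pecam1, Slc2a1, Mfsd2a, Abcb1a and Vwf for endothelial cells, and Pdgfrb, Rgs5 and Acta2 for mural cells. They were chosen by symbol, and each matched 1 row of the deposited table, so that 10 of its 54532 genes are described. The tissue was cortex of 25 mice, 5 to a group. Wild-type animals received vehicle (WT_Veh) or high P (WT_HighP), and mice carrying the 5xFAD transgenes received vehicle (AD_Veh), low P (AD_LowP) or high P (AD_HighP). The compound called P derives from a natural product; what it is, its doses, the length of treatment and the ages of the mice are not stated in the labels used here. The 5xFAD line expresses mutant human amyloid precursor protein and presenilin from Thy1 sequences, which act mainly in neurons, so the vessel cells are not the cells meant to carry the transgene product. The groups address whether the amyloid model, or P in either genotype, changes cortical expression.

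The endothelial cells of brain capillaries are sealed by tight junctions and form the blood-brain barrier. They carry nutrients inwards through dedicated transporters and pump drugs and other compounds back into the blood. Pericytes sit on the capillary wall and depend on platelet-derived growth factor signalling, while smooth muscle cells surround arterioles and contract. In whole-tissue RNA, fewer cells of a type and less RNA per cell cannot be told apart.

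Base composition is shown first, because the spread of several of these genes across libraries followed it. GC content, the share of G and C letters over all annotated transcripts of a gene, was 60.5% for Cldn5 and 41.8% for Rgs5, the highest and the lowest of the 10. Of all tested genes, 96.2% had a lower GC content than Cldn5 and 9.50% a lower one than Rgs5. The coding sequences themselves held 64.1% G or C over 654 bases in Cldn5 and 49.2% over 543 bases in Rgs5. Below are 120 coding bases of each from GENCODE M21, with G and C in capitals. The window is the first whose GC content was nearest to that of the gene's transcripts, so its composition follows from the choice: bases 10 to 129 of Cldn5 with 73 G or C, and bases 231 to 350 of Rgs5 with 50. The first 120 coding bases, which were looked at before this window was chosen, held 71 and 62, a smaller contrast. In mm10 coordinates the 3 genes the results turn on most are Cldn5 (ENSMUSG00000041378) at chr16:18776847-18778262 on the plus strand, Rgs5 (ENSMUSG00000026678) at chr1:169655501-169695813 on the plus strand and Acta2 (ENSMUSG00000035783) at chr19:34241090-34255336 on the minus strand. All are annotated as protein coding. The start codons of Cldn5 and Rgs5 lie at chr16:18776996-18776998 and chr1:169655578-169655580.
Cldn5: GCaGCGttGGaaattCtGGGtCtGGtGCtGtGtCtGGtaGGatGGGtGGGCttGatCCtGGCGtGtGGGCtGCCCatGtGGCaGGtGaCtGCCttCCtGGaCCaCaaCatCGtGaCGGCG
Rgs5: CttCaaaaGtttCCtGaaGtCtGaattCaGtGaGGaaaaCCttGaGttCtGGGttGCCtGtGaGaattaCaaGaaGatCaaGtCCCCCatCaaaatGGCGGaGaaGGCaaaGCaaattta

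Each library held 15518358 to 17698222 reads assigned to genes. All 10 genes were above 0 in every library and passed the filter of at least 0.5 FPKM (fragments per kilobase of gene length, scaled to library size) in at least 5 libraries, as did 16450 genes in all. The fewest reads behind a value of the 10 genes were 109, for Acta2 in AD_LowP 4. The summed level of 7 neuronal markers was 968 to 1648 FPKM per library and that of 6 astrocyte markers 348 to 894 FPKM, with none at 0 in any library. In AD_Veh against WT_Veh, where 3.1% of all tested genes were called, 4 of 6 microglial, 2 of 6 astrocyte and 1 of 7 neuronal markers rose. Among them were Gfap, an intermediate filament of reactive astrocytes (log2 fold change 3.69, SE 0.21), and Thy1 (1.55, SE 0.13), whose sequences drive the transgenes. The level of Ttr, the main secreted product of choroid plexus, set 4 libraries apart. They held 484 to 820 FPKM of it: WT_HighP 1 and 2, and AD_HighP 1 and 4. The other 21 held at most 58.2 FPKM.

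Per length, 3 genes stood above the rest. The median over 25 libraries was 29.9 FPKM for Slc2a1, the glucose transporter of the barrier that astrocytes also express, 29.7 FPKM for Rgs5, a regulator of G protein signalling in pericytes, and 26.8 FPKM for Cldn5, the main claudin of endothelial tight junctions. The other 7 had medians from 2.60 FPKM for Vwf, the clotting factor carrier of larger vessels, to 8.22 FPKM for Abcb1a, the drug efflux pump P-glycoprotein. Abcb1a has a close relative in Abcb1b and Acta2 shares much sequence with other actins, so their levels are less certain where reads match both. The highest library exceeded the lowest 1.73-fold for Pecam1, the adhesion molecule CD31, 3.43-fold for Cldn5 and 4.97-fold for Acta2, smooth muscle actin. On the log2 scale the residual SD within groups was 0.46 for Cldn5 and 0.38 for Acta2, against a median of 0.24 over all tested genes.

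**Figure D1:**
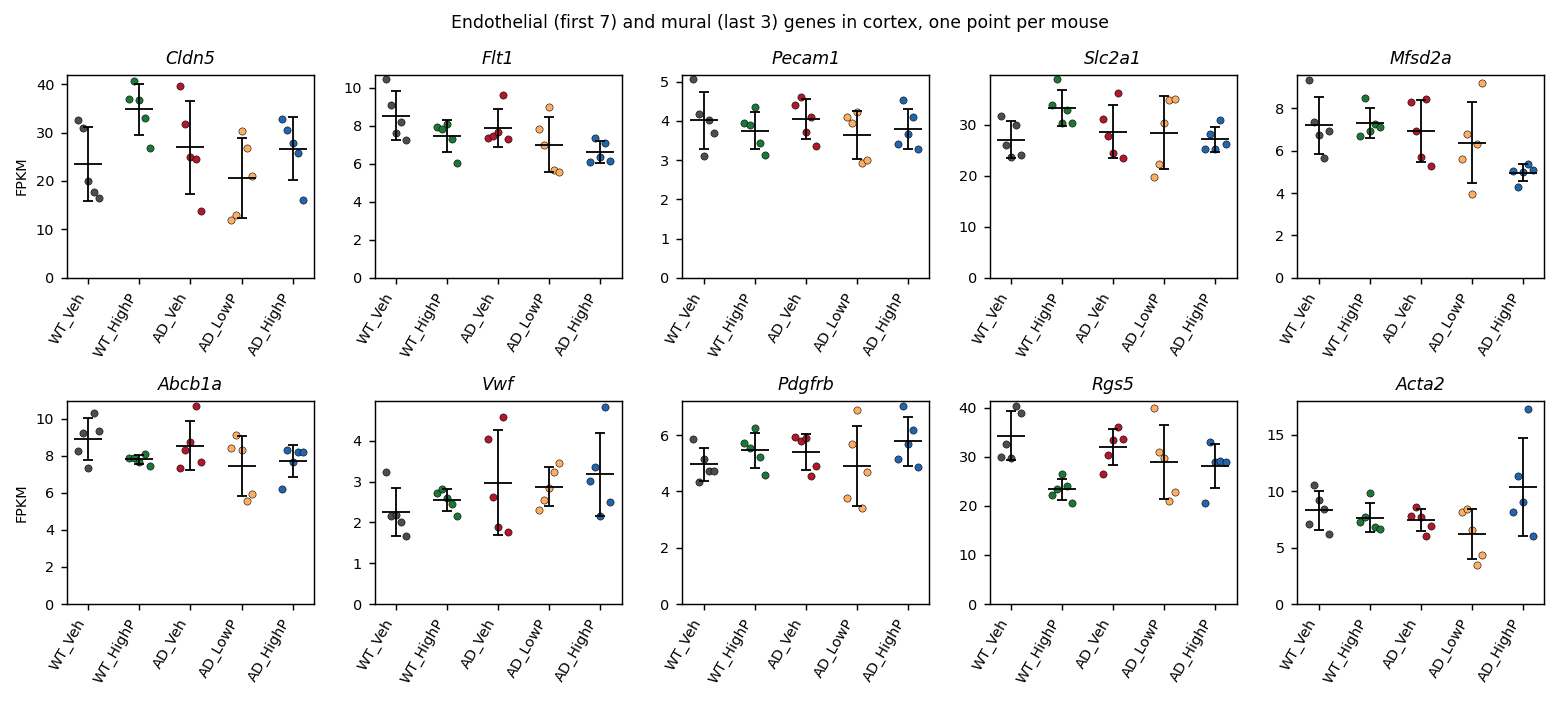
FPKM of the 10 genes (vertical axes, from 0) in the 5 groups, 1 point per mouse, with bars for the mean ± SD of 5 mice. Only for Rgs5 do the WT_HighP points (20.6 to 26.5 FPKM) all lie below the WT_Veh points (29.8 to 40.4 FPKM).

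In 5xFAD cortex on vehicle, no change was called in any of the 10 genes. By limma on log2(FPKM + 0.5), with p-values adjusted over all tested genes, 0 of 10 passed an adjusted p of 0.05 in AD_Veh against WT_Veh, where 3.1% of tested genes passed. None reached an unadjusted p of 0.05 either, a level that 11.4% of all genes reached, and voom on reads recovered from the table called 0. In no gene were the 2 groups of mice separate, against 3.84% of tested genes. The median log2 fold change of the 10 was -0.02, as was that of all tested genes. The 95% intervals of all 10 lay between 0.658-fold and 1.66-fold, and changes within those bounds are not excluded.

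In each of the 7 endothelial genes the groups overlapped. Cldn5 was 23.6 ± 7.65 FPKM in WT_Veh and 26.9 ± 9.55 in AD_Veh (SD, n = 5 each). Pecam1 was 4.01 ± 0.73 FPKM in WT_Veh and 4.04 ± 0.51 in AD_Veh. Flt1, a receptor for vascular endothelial growth factor, was 8.53 ± 1.29 and 7.90 ± 0.99 FPKM. Mfsd2a, which carries lysophospholipid-bound omega-3 fatty acid across the barrier, was 7.20 ± 1.35 and 6.93 ± 1.44 FPKM. Vwf had the largest estimate, 2.25 ± 0.59 FPKM against 2.98 ± 1.28 (log2 fold change 0.29, SE 0.20, adjusted p = 0.676). Its AD_Veh values of 4.05, 2.61, 1.88, 4.58 and 1.77 FPKM overlapped those of WT_Veh, which were 3.23, 2.16, 2.18, 2.02 and 1.66 FPKM.

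In each of the 3 mural genes the groups overlapped as well. Pdgfrb, the receptor through which pericytes are recruited and kept, read 5.87, 4.33, 5.17, 4.72 and 4.74 FPKM in WT_Veh and 5.94, 5.77, 5.88, 4.53 and 4.90 FPKM in AD_Veh. The groups overlapped, with a log2 fold change of 0.11 (SE 0.14, adjusted p = 0.853). Rgs5 was 34.3 ± 4.97 FPKM in WT_Veh and 31.9 ± 3.66 in AD_Veh (adjusted p = 0.879). Acta2 was 8.32 ± 1.70 and 7.43 ± 0.97 FPKM (adjusted p = 0.894).

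The 9 further vascular lists held genes of junctions, transporters, signalling receptors and ligands, transcription factors, surface and secreted proteins, activation, pericytes, smooth muscle and basement membrane. Among their 113 tested genes, 1 rose and 1 fell in AD_Veh, a smaller share than the 3.1% of all tested genes called there. F11r, the junctional adhesion molecule JAM-A, which platelets and leukocytes also carry, was 2.43 ± 0.69 FPKM in WT_Veh and 4.71 ± 0.73 in AD_Veh, a log2 fold change of 0.86 (SE 0.16) with an adjusted p of 0.00113. Every AD_Veh library (4.25 to 5.98 FPKM) was above every WT_Veh library (1.29 to 3.08 FPKM), and the microglial marker sum rose alongside, from 81.6 to 114 FPKM in WT_Veh to 204 to 244 FPKM in AD_Veh. The part of other cells in the F11r rise was not tested. Apold1, an early-response gene of endothelium, fell by 1.13 on the log2 scale (SE 0.26, adjusted p = 0.0128), from 3.06 ± 1.72 to 0.99 ± 0.16 FPKM. That call was lost in 2 of the 10 fits that each left out 1 library of these groups, and with only these groups in the fit (adjusted p = 0.0667). Apold1 read 2.12, 1.57, 1.82, 5.39 and 4.38 FPKM in WT_Veh, so 2 libraries stood high. In WT_HighP, also wild type, it was 1.28 ± 0.48 FPKM.

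High P in wild-type mice gave the only call among the 10 genes. Rgs5 was 30.0, 32.5, 29.8, 40.4 and 38.8 FPKM in WT_Veh and 22.3, 23.4, 26.5, 24.0 and 20.6 FPKM in WT_HighP. All 5 treated mice were below all 5 controls. The fold change was 0.689 (log2 -0.54, SE 0.14), with an adjusted p of 0.0461. That is 1 of 10 genes called, against 3.17% of all tested genes (1.79% lower), and 1 of 10 with separate groups, against 9.42% (4.69% lower). The call stood close to the threshold: it was lost in 9 of the 10 fits that each left out 1 library of these groups (adjusted p 0.0209 to 0.137, kept only without WT_Veh 1). Without the 4 libraries rich in Ttr the log2 fold change was -0.52 with an adjusted p of 0.298.

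Cldn5 and Slc2a1 moved the other way without passing. Cldn5 read 32.6, 31.0, 19.9, 17.8 and 16.5 FPKM in WT_Veh and 36.9, 40.6, 36.7, 33.1 and 26.8 FPKM in WT_HighP. The groups overlapped in 1 treated library, and the log2 fold change of 0.60 (SE 0.27) had an adjusted p of 0.158. Slc2a1 was 27.1 ± 3.62 FPKM in WT_Veh and 33.3 ± 3.49 in WT_HighP (log2 fold change 0.30, SE 0.14, adjusted p = 0.175). With Rgs5 they make 3 of 10 genes at an unadjusted p under 0.05, a level that 27.8% of all tested genes reached. The remaining 7 had log2 fold changes from -0.18 for Flt1 to 0.17 for Vwf.

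**Figure D2:**
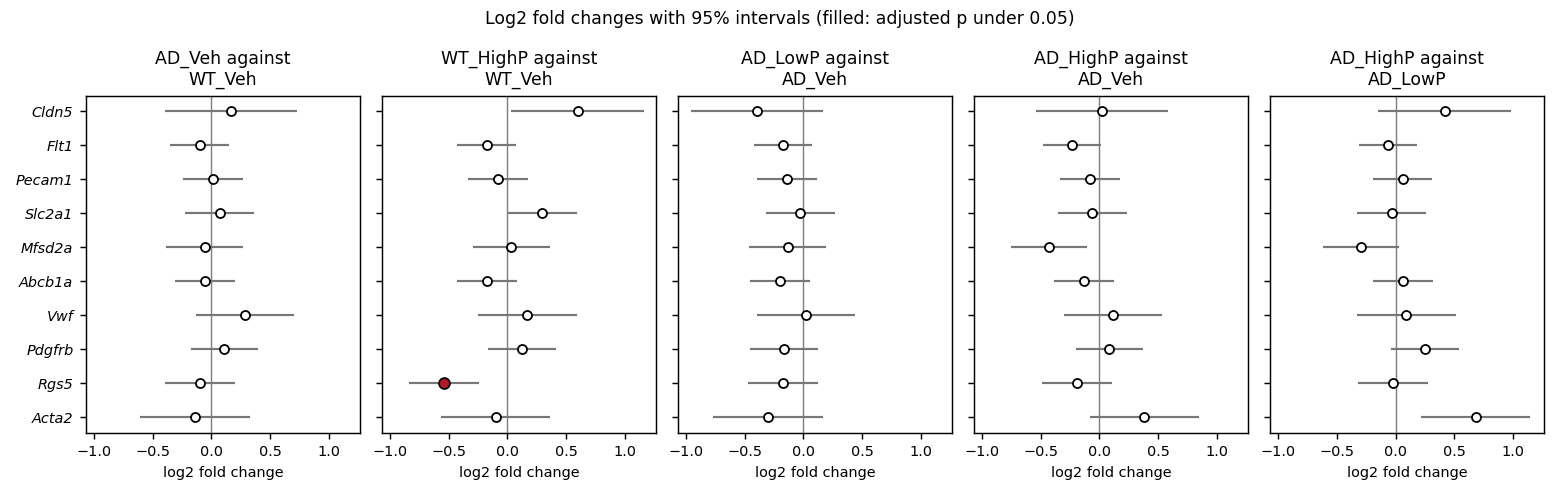
Log2 fold change (horizontal axes, on the log2(FPKM + 0.5) scale) of the 10 genes in the 5 pairwise comparisons, with 95% intervals from limma. The filled point, Rgs5 in WT_HighP against WT_Veh, is the only one past an adjusted p of 0.05.

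The direction in WT_HighP followed GC content. The 5 genes with estimates above 0 had GC content of 54.2% or more, and the 5 below 0 had 49.9% or less. Some of these signs are uncertain. Mfsd2a, at 0.03 (SE 0.16), ranged from -0.04 to 0.13 over the fits that each left out 1 library. Across the 10 genes Spearman's rho between log2 fold change and GC content was 0.867, and across all tested genes it was 0.723. Genes are not independent replicates, so these are descriptions. In each library a line was fitted to expression against GC content, with its slope in log2 units per 10 points of GC relative to each gene's mean. It was -0.307 to 0.0783 in WT_Veh and 0.104 to 0.247 in WT_HighP, with no overlap. The other groups overlapped both ranges, at -0.268 to 0.122 in AD_Veh, -0.298 to 0.168 in AD_LowP and -0.0912 to 0.188 in AD_HighP. After each library was corrected for a smooth trend on GC content, Rgs5 in WT_HighP had a log2 fold change of -0.26 (SE 0.10, adjusted p = 0.400), Cldn5 0.16 (SE 0.17, adjusted p = 0.836) and Slc2a1 0.11 (SE 0.11, adjusted p = 0.832). The calls over all genes fell from 522 to 9. Since slope and treatment move together in these groups, they cannot be told apart here.

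**Figure D3:**
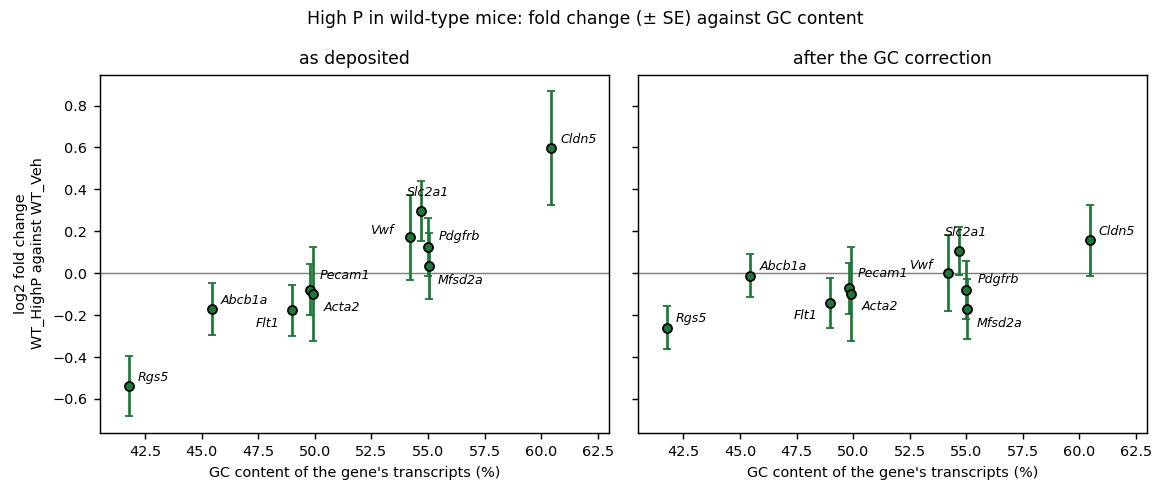
Log2 fold change of WT_HighP against WT_Veh (vertical axis, bars ± SE) against transcript GC content in percent, from the deposited values (left) and after the GC correction (right). On the left the points climb from Rgs5 (-0.54) to Cldn5 (0.60), and on the right the same genes lie at -0.26 and 0.16.

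A relation to the slope was also present over all 25 libraries. Between the GC slope of a library and the log2 level of a gene, Pearson's r was 0.854 for Cldn5 (Spearman's rho 0.803) and -0.817 for Rgs5 (rho -0.832). Without the 2 libraries farthest from the median slope, r was 0.819 and -0.763, and after subtracting group means it was 0.897 and -0.725. Within the single groups of 5 mice, r was above 0 in all 5 for Cldn5, and for Rgs5 it was below 0 in 4 and above 0 in WT_HighP. The slope is computed from genes of the same libraries, so r is given without a test. Of all tested genes, 6.42% had an r at least as far from 0 as that of Cldn5 and 9.82% as that of Rgs5. Slc2a1 (0.685) and Abcb1a (-0.582) came next, and Pecam1 was at -0.00876. Genes of like GC content differed in r. Slc2a1 has a GC content of 54.7%, while Pdgfrb (r 0.309) and Mfsd2a (r 0.183) both have 55.0%. The correction lowered the residual SD of Cldn5 from 0.46 to 0.28 and that of Rgs5 from 0.24 to 0.17 log2 units, while that of Acta2 stayed at 0.38.

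**Figure D4:**
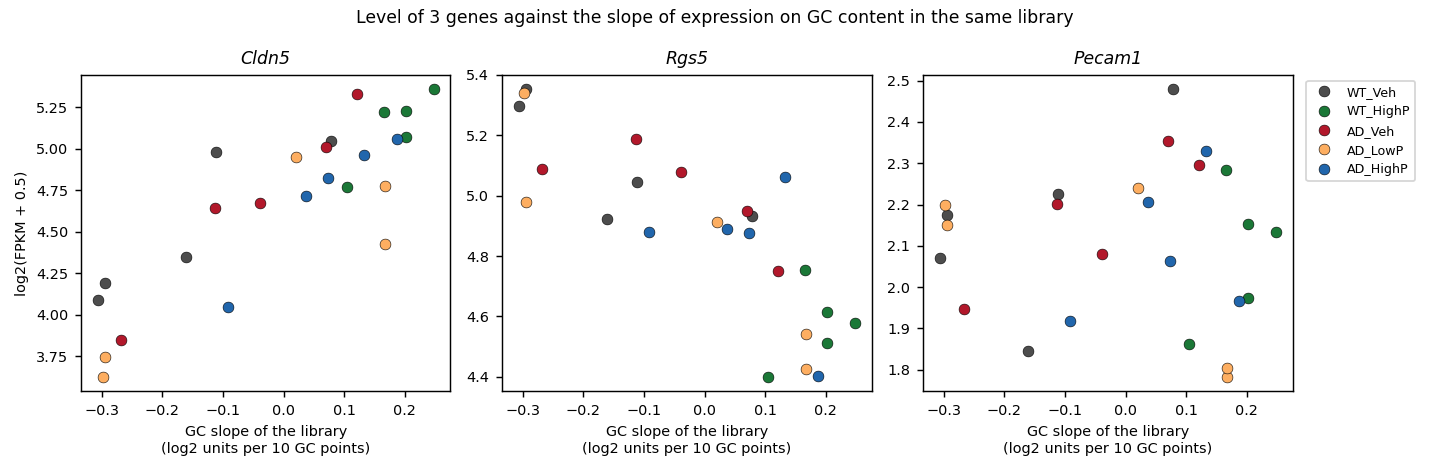
Log2(FPKM + 0.5) of Cldn5, Rgs5 and Pecam1 (vertical axes) against the GC slope of the library in log2 units per 10 GC points, 1 point per mouse, coloured by group. Cldn5 climbs with the slope (r 0.854), Rgs5 descends (r -0.817) and Pecam1 shows no trend (r -0.00876).

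Of the 113 further vascular genes, 4 were called in WT_HighP, 3 higher and 1 lower, a share near the 3.17% of all tested genes called there. Thbd, the endothelial anticoagulant thrombomodulin, rose by a log2 fold change of 0.76 (SE 0.20, adjusted p = 0.0445), from 2.56 ± 0.83 to 4.53 ± 0.71 FPKM. Bsg, the immunoglobulin-family protein basigin, rose by 0.37 (adjusted p = 0.0466), and Hspg2, the basement membrane proteoglycan perlecan, by 0.59 (adjusted p = 0.0424). Slco1a4, an organic anion transporter of the barrier, fell by 0.56 (adjusted p = 0.0356), from 11.2 ± 1.23 to 7.45 ± 0.61 FPKM. Each of these calls was lost in 8 or 9 of the 10 fits leaving out 1 library of these groups, and after the GC correction. Corrected log2 fold changes were 0.70 for Thbd, 0.13 for Bsg, 0.13 for Hspg2 and -0.23 for Slco1a4.

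No change was called among the 10 genes with low P in 5xFAD mice: by limma 0 of 10 passed, against 0% of all tested genes. The 95% intervals of all 10 lay between 0.514-fold and 1.36-fold, so changes within those bounds are not excluded. None reached an unadjusted p of 0.05, a level 2.98% of genes reached, voom called 0, and no gene had separate groups, against 0.377%. Of the 10 estimates, 9 lay below 0, with a median log2 fold change of -0.17. The largest was that of Cldn5, -0.396 (SE 0.273), and -0.385 (SE 0.170) after the GC correction. AD_LowP 1 and 2 held the lowest Cldn5 of all 25 libraries, 11.8 and 12.9 FPKM. They also had the fewest genes above 0, 20069 and 18776, against 20846 to 22670 in the other libraries. Of the 113 further vascular genes 87 lay below 0, against 53.2% of all tested genes. Among them were all 14 tested genes of the pericyte list, which also holds Rgs4 and Pdgfb, genes not confined to pericytes. Microglial markers (6 of 6 below 0, median -0.20) and oligodendrocyte markers (6 of 6, median -0.25) had the same sign. Within AD_LowP, replicate 4 was the lowest of all 25 libraries for Pecam1, Abcb1a, Pdgfrb and Acta2. The sum of the pericyte list, Rgs4 and Pdgfb included, was 128 FPKM there and 142 in replicate 5. It was 209 to 254 FPKM in the other 3 mice of the group and 137 to 384 FPKM in WT_Veh. The sum was not split by gene, so it does not measure pericytes alone. Replicates 4 and 5 had the highest GC slopes of AD_LowP, 0.167 and 0.168, against -0.298 to 0.0196 in the other 3. The part of the slope and of other cells in these values was not tested.

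In 5xFAD mice on high P, 0 of 10 genes passed against AD_Veh by limma, where 0.00608% of tested genes passed, and voom called 0. No gene had separate groups, against 1.35% of tested genes. One gene of 10 reached an unadjusted p of 0.05, against 5.98% of all genes. This was Mfsd2a, with 6.93 ± 1.44 FPKM in AD_Veh and 4.96 ± 0.40 in AD_HighP (log2 fold change -0.43, SE 0.16, adjusted p = 0.780). Its AD_HighP values of 5.03, 4.30, 4.99, 5.38 and 5.08 FPKM overlapped the lowest AD_Veh library at 5.30. After the GC correction the log2 fold change of Mfsd2a was -0.50 (SE 0.14), farther from 0 but still not called (adjusted p = 0.718). In the interaction, which compares the effect of high P between genotypes, 0 of 10 genes passed by limma and by voom (0% of all genes by limma), and Mfsd2a alone reached an unadjusted p of 0.05 (log2 -0.46, SE 0.22, adjusted p = 0.71), against 6.92% of all genes. For Rgs5 the interaction was 0.35 (95% interval -0.07 to 0.77), so its difference between genotypes in the effect of high P did not pass the test. Interaction estimates also followed GC content, with Spearman's rho of -0.733 over the 10 genes and -0.524 over all tested genes. After the GC correction the interaction was 0.16 (SE 0.15) for Rgs5 and -0.33 (SE 0.20) for Mfsd2a, neither called.

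In AD_HighP, Acta2 had the widest range of the 10 genes, its highest library 2.86-fold above its lowest. It read 8.14, 11.4, 9.01, 17.3 and 6.06 FPKM in AD_HighP, 8.20, 8.40, 6.60, 3.49 and 4.39 FPKM in AD_LowP, and 7.85, 8.57, 7.76, 6.03 and 6.96 FPKM in AD_Veh. The highest and the lowest of all 25 libraries were thus in the groups on high and low P, and the groups overlapped. AD_HighP against AD_LowP gave a log2 fold change of 0.68 (SE 0.23, adjusted p = 0.773). There 0 of 10 genes passed by limma and by voom (0% of all genes by limma), 1 of 10 reached an unadjusted p of 0.05 (6.19% of all), and none had separate groups (0.9% of all). Without AD_HighP 4 the value was 0.48, and without AD_LowP 4 it was 0.51. AD_HighP 4 held 484 FPKM of Ttr and the highest sum of 10 fibroblast and meningeal markers (43.8 FPKM, against 10.5 to 29.9 in the other 24 libraries), with none of these markers at 0 in any AD_HighP library. The part of those cells in its Acta2 level was not tested.

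Over 25 libraries the 5 tested genes most like Acta2 were Atp13a5 (r 0.74), a pericyte gene, Myh11 (0.73), smooth muscle myosin, Itm2a (0.71), Bgn (0.67) and Reck (0.64). After subtracting group means they were Des (0.76), Eln, Fam234a, Prkd3 and Glo1 (0.72). Acta2 was singled out after its values were seen. Of 8 tested smooth muscle genes, Myh11, Des (0.63), Myl9 (0.59) and Cald1 (0.58) had the highest r with it, and Lmod1 (0.10) and Mylk (-0.06) the lowest. Its promoter is shown because smooth muscle actin is a textbook target of serum response factor, which binds CArG boxes. These are the 250 bases before its RefSeq transcription start on the minus strand, chr19:34255374-34255623, from RefSeq on GRCm38.p6. Capitals mark matches to CC, then 6 letters of which at least 5 are A or T, then GG, a pattern that reads alike on both strands.
Acta2: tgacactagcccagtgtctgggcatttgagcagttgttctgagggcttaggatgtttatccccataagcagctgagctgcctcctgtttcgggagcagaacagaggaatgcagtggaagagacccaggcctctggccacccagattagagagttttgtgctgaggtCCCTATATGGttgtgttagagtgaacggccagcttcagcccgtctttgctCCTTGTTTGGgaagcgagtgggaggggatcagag

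The matches, at -84 and -34, are CCCTATATGG and CCTTGTTTGG. RefSeq entries were found for 7 of the 10 genes, and the other 6 held no match. Of 32851 promoters, 8.59% held at least 1 match and 0.67% at least 2. This pattern was widened after a first search, which required all 6 central letters to be A or T over 300 bases, had found no match in any of the 7 promoters (1.63% of all promoters matched), and after the Acta2 sequence had been read. A match describes letters and not binding.

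For Cldn5 the 5 most alike genes were Map3k10, Dlgap3, Rbck1, Rnf10 and Abhd17a, with r from 0.91 to 0.93 and GC content of 54.5% to 64.8%. For Pdgfrb they were Hipk2 (0.80), Fnbp1, Gprc5b, Phldb1 and Gm30731 (0.74). After subtracting group means, Mlf2, Map3k10, Mbd3, Rnf187 and Pex6 were nearest to Cldn5 (0.94 to 0.95), and Hipk2, Phldb1, Rflnb, Gprc5b and 5031439G07Rik to Pdgfrb (0.78 to 0.85). Rgs5, examined after its values were seen, was nearest to mt-Nd1, Zdhhc20, Qk, mt-Nd4 and Svip (0.87 to 0.89), whose GC content was 35.6% to 44.9%.

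Within the 10 genes, 33 of 45 pairs had a positive r over the 25 libraries and 12 a negative one. Flt1 and Pecam1, both endothelial, had r 0.74, and Abcb1a and Rgs5, an endothelial and a pericyte gene of low GC content, had 0.77. Cldn5 and Rgs5 had the lowest, -0.56. After the GC correction, 7 pairs were negative, Cldn5 and Rgs5 stood at 0.05, and Flt1 and Pecam1 at 0.76. Pdgfrb and Rgs5, both pericyte genes, went from -0.00 to 0.49. All points share library and depth, so these values describe the libraries.

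**Figure D5:**
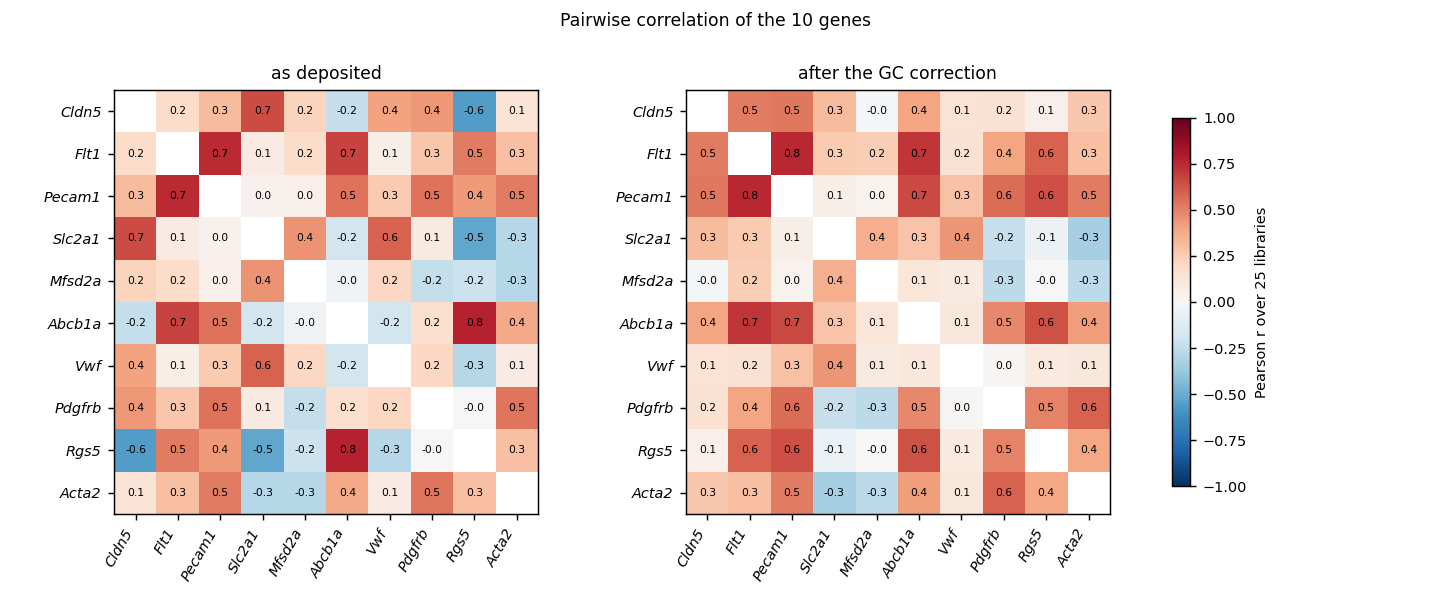
Pearson r between each pair of the 10 genes over 25 libraries (colour from -1 to 1, values to 1 decimal), from the deposited values (left) and after the GC correction (right). The Cldn5 and Rgs5 cell goes from -0.56 to 0.05, while Flt1 and Pecam1 stay high at 0.74 and 0.76.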

How the data were processed

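RNA was sequenced from the cortex of 25 mice, 5 in each of 5 groups taken from the labels. Poly(A)-selected, strand-specific libraries were made, per the labels' protocols, and reads were aligned with HISAT2 to mm10, per the submitters' processing notes. The sources used here do not give how reads were counted or over which annotation. The unit of the deposited values is FPKM, which the authors computed; another column gives gene length in bp. FPKM times length gave whole reads for 100% of values (tolerance 0.01 read), so depth could be recovered. These reads cover counting error only, since PCR duplicates cannot be recognised.

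The 16450 genes reaching 0.5 FPKM in 5 or more libraries were tested as log2(FPKM + 0.5), which understates the change of low genes, with limma 3.58.1 in R 4.3.3: group means over all 25 libraries, 20 residual degrees of freedom, two-sided tests, Benjamini-Hochberg adjustment over all tested genes, called at adjusted p under 0.05. The fit was tested on simulated data in which each gene was drawn independently. These data held no GC trend shared within a library, so the simulation does not bear on calls under such a trend. Nothing says that samples shared a litter or batch. The 10 genes and the lists were chosen with earlier results of these data known. Named were all 10 genes, called genes of the lists (up to 4 per list and comparison with the largest change), and the 5 genes most like Cldn5 and Pdgfrb.

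Alternatives were pseudocounts of 0.1 and 1, no filter or 1 FPKM, only the compared groups, a replicate block, library-total and upper-quartile scaling, a GC correction, voom, array weights and leaving out each library. Leaving out libraries over 100 FPKM of Ttr was added after the data were seen. GC content was first taken from the longest transcript of a gene (GENCODE M21) and then, after those results had been seen, from all its transcripts; the first version is reported as an alternative.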

Additional observations from a re-analysis of the deposited data

Results flagged for a closer look

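Flt1 in AD_Veh was flagged because 1 library stood far from the other 4 of its group: AD_Veh 4 held 9.65 FPKM and the others 7.32 to 7.68 FPKM. It was 1 of 50 gene and group combinations examined, and chance alone flags about 1 in 20. Without that library the log2 fold change of Flt1 in AD_HighP against AD_Veh was -0.17, in place of -0.24.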

How the results depend on the processing

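Rgs5 in WT_HighP against WT_Veh was called in 18 of 38 other settings and not in 20, so that the count of the 10 genes called there was 0 with no filter (adjusted p of Rgs5 0.0921), library-total scaling (0.0508), the GC correction (0.400, or 0.333 with the longest transcript) and without the 4 libraries over 100 FPKM of Ttr (0.298). Leaving out 1 library gave a count of 0 to 1, with 0 in 14 of 25 fits: all of these groups except WT_Veh 1, and AD_Veh 2 and 3 and AD_HighP 2, 3 and 4 besides. Its log2 fold change stayed below 0 in every setting run. The other 59 combinations of gene and comparison were called in 0 of 2242 alternative fits; an uncalled gene that stayed uncalled was counted as unchanged whatever its sign. The replicate block also gave a count of 0 (adjusted p 0.0645). Of 50 same-numbered pairs, 11 had deviations correlated over 0.1 (mean r -0.00897), and 5 of 25 libraries correlated best with their own number. The GC slope did follow the number. It fell from replicate 1 to 5 in WT_Veh (0.0783 to -0.307), AD_Veh (0.122 to -0.268) and AD_HighP (0.188 to -0.0912). In AD_LowP it climbed (-0.298 to 0.168), and in WT_HighP it had no steady order. With opposite orders, the mean r cannot show that replicate numbers carry no structure. The block changed no other call among the 10 genes. Over all genes, the 522 calls of that comparison became 0 with no filter, 1513 with only these groups, 218 with the block, 9 with the GC correction (21 with the longest transcript), 3371 with array weights, 0 to 2724 leaving out 1 library and 0 without the libraries rich in Ttr. The 510 calls of AD_Veh against WT_Veh became 811 with array weights, 346 with only these groups and 381 to 570 leaving out 1 library. Calls in the other comparisons were at most 2 with no filter and 9 with array weights. The cause of these differences was not tested. Among the 10 genes depth limits Acta2 most, with as few as 109 reads, and of the others named Apold1, with as few as 33.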
